A study of Homo sapiens with 4 samples.

Results

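The 51 genes described here encode ligands, latent binding proteins, antagonists, receptors, SMADs and intracellular inhibitors of the TGF-beta and BMP pathways, together with the 4 ID genes. They were chosen by symbol from a fixed list, and all 51 were found among the 60683 gene identifiers of the tables. RNA was sequenced from HCT116, a cell line established from a human colorectal carcinoma. There were 2 libraries from cells stably transduced with a pSin lentivirus that carries FOXD2, a transcription factor of the forkhead family, as its complete coding sequence, and 2 libraries from cells transduced with the empty pSin vector. All 4 libraries came from cells kept under puromycin, so selection and transduction are shared by the groups. Whether the libraries of a group stem from separate cultures is not given in the labels, and the p-values therefore cover only the variation among these libraries, possibly technical.

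Ligands of the TGF-beta, activin and BMP families bind pairs of type I and type II receptor kinases, which phosphorylate receptor SMADs. SMAD2 and SMAD3 carry the TGF-beta and activin signal, SMAD1, SMAD5 and SMAD9 carry the BMP signal, and all of them join SMAD4 in the nucleus. The ID genes are classical direct targets of BMP SMADs, and their products are helix-loop-helix proteins without a DNA-binding region that hold E proteins such as TCF3 and TCF12 away from DNA. In the intestine, BMP signalling is known to be low at the crypt base, where antagonists are made by surrounding stroma, and higher towards the surface. HCT116 is a microsatellite-unstable line with inactivating mutations of TGFBR2 and ACVR2A, so RNA of these receptors does not stand for functional receptor in this line.

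Libraries held between 14231338 and 15535817 counts. A count of 0 allowed up to 3 counts, or 0.193 to 0.211 CPM (counts scaled to a common library size), and such limits cover counting error only. FOXD2, as a check of the labels, had 8195 and 7011 counts in FOXD2 cells, against 49 and 42 in empty vector cells. The epithelial markers EPCAM, CDH1, KRT8, KRT18 and KRT19 were expressed in all libraries. So was the intestinal factor CDX2 (177 and 196 counts in FOXD2 cells, against 227 and 286 in empty vector cells). VIL1, LGR5 and GPA33 had at most 6 counts in any library, and CDX1 and CEACAM5 had 0 counts in all of them. Of the 11 epithelial markers 6 were tested, with 5 higher and 1, CDX2, lower (log2 fold change -0.51). Of 12 blood and endothelial markers 4 were tested and 2 rose (CD68 and HBA2). The 12 summed to 46.8 and 38.5 CPM in FOXD2 cells, against 6.93 and 7.61 CPM in empty vector cells. CD68 made up most of the sums in FOXD2 cells (42.2 and 35.5 CPM). HBA2 (18 and 23 counts in FOXD2 cells, against 0 and 0) passed the filter on low counts only through the FOXD2 libraries. HBA1 had 21 and 0 counts in FOXD2 cells, against 13 and 17 in empty vector cells, and was not called. How reads were divided between HBA1 and HBA2 was not tested. PTPRC, CD3E and CDH5 were at 0 counts. Of 7 markers of packaging cells 4 were tested, 2 higher and 2 lower, with NEFL, NEFM and EYA1 at 0 counts. The part of these markers in the results was not tested. Differences between groups were tested in 1 fit over all genes by the quasi-likelihood test of edgeR on rounded expected counts, with Benjamini-Hochberg adjustment over 14470 genes and a threshold of 0.05. Of these genes 53.5% passed, 27.2% as higher and 26.4% as lower in FOXD2 cells, and 8.2% were higher and 2.8% lower by at least 2-fold. The balance depends on the scaling: 3929 genes were higher and 3816 lower here, against 4511 higher and 3110 lower with library totals alone.

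The sequences immediately upstream of the RefSeq starts of ID1, ID2 and ID3 are shown first because these 3 genes fell together in FOXD2 cells. Each run gives the 250 bases before the RefSeq start on GRCh38.p14, read 5′ to 3′ along the gene: chr20:31605039-31605288, plus strand, for ID1, chr2:8681806-8682055, plus strand, for ID2, and chr1:23559502-23559751, minus strand, for ID3. Capitals mark the letters GTCT or their reverse complement AGAC, the short SMAD box.
ID1: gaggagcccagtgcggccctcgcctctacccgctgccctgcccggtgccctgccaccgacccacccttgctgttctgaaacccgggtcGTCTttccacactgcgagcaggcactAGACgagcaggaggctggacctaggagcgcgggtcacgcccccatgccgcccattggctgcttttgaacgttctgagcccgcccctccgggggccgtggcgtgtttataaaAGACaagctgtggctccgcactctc
ID2: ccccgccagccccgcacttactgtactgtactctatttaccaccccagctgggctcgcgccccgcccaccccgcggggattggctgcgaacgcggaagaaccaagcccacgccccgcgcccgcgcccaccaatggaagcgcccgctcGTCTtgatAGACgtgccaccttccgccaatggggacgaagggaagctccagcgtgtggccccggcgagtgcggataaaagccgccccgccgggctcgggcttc
ID3: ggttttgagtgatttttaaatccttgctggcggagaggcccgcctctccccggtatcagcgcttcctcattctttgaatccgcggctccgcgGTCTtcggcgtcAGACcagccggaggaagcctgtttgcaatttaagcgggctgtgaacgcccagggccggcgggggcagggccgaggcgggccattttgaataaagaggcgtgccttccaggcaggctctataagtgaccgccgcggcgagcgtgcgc
The SMAD box was found 3 times in the ID1 window and 2 times in each of the ID2 and ID3 windows. Of 35116 windows of the same length over all RefSeq promoters, 77.5% held it at least once. The letters GGCGCC of the BMP-type GC element (16.4% of windows), TGTTTAC or GTAAACA of the forkhead motif (2.98%) and CACCTG or CAGGTG of an E-box (17.5%) were in none of the 3 windows. Only these exact letters were searched. Close variants of the forkhead letters, such as tgtttat in ID1, tatttac in ID2 and tgtttgc in ID3, were not counted. The windows are therefore not shown to lack forkhead sites. The known BMP-responsive element of ID1 lies farther upstream than this window reaches.

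The 3 expressed ID genes were all lower in FOXD2 cells, to between 30% and 41% of their level in empty vector cells by the fitted ratio. ID1 had 81.4 and 68.3 CPM in FOXD2 cells, against 244 and 255 CPM in empty vector cells. The groups did not overlap, which held for 78.6% of tested members and 76.1% of all tested genes. The fitted log2 fold change of FOXD2 over empty vector for ID1 was -1.74 (SE 0.07, edgeR adjusted p = 6.6e-25). ID2 had 29.2 and 26.3 CPM in FOXD2 cells, against 82.4 and 84.3 CPM in empty vector cells, a fitted log2 fold change of -1.59 (SE 0.08; adjusted p = 3.1e-23 by edgeR). ID3 had 35.1 and 29.2 CPM in FOXD2 cells, against 79.2 and 77.8 CPM in empty vector cells, a fitted log2 fold change of -1.29 (SE 0.09; adjusted p = 6.2e-19 by edgeR). Both FOXD2 libraries lay far below both empty vector libraries for each of the 3 genes, and FOXD2 replicate 1 was the higher of the FOXD2 pair each time. In the order of all 14470 log2 fold changes, counted from the largest fall, ID1 had rank 118, ID2 rank 153 and ID3 rank 252. The fourth member, ID4, was near the limit of detection with 10 and 12 counts in FOXD2 cells, against 8 and 6 in empty vector cells, and was not tested.

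Per length, ID1 was the most abundant of the 51 genes in empty vector cells. It had 117 ± 13.1 TPM (the authors' level scaled for gene length and library size) in FOXD2 cells and 391 ± 2.67 TPM in empty vector cells (SD, n = 2 each). The 4 ID genes summed to 209 ± 23.7 TPM in FOXD2 cells and to 631 ± 4.55 TPM in empty vector cells (SD, n = 2 each). ID1 made up 55.8% and 55.9% of that sum in FOXD2 cells, against 62.0% and 61.9% in empty vector cells, so its share was lower in both FOXD2 libraries. The genes lie on 4 chromosomes (ID1 on 20, ID2 on 2, ID3 on 1, ID4 on 6), so they are not neighbours. A few exonic bases of ID2 (38 of 2205) overlap an antisense RNA, and the strand setting of the authors' counting is not given in the sources used here. In bulk RNA, fewer cells expressing a gene and less RNA in each cell cannot be told apart.

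**Figure D1:**
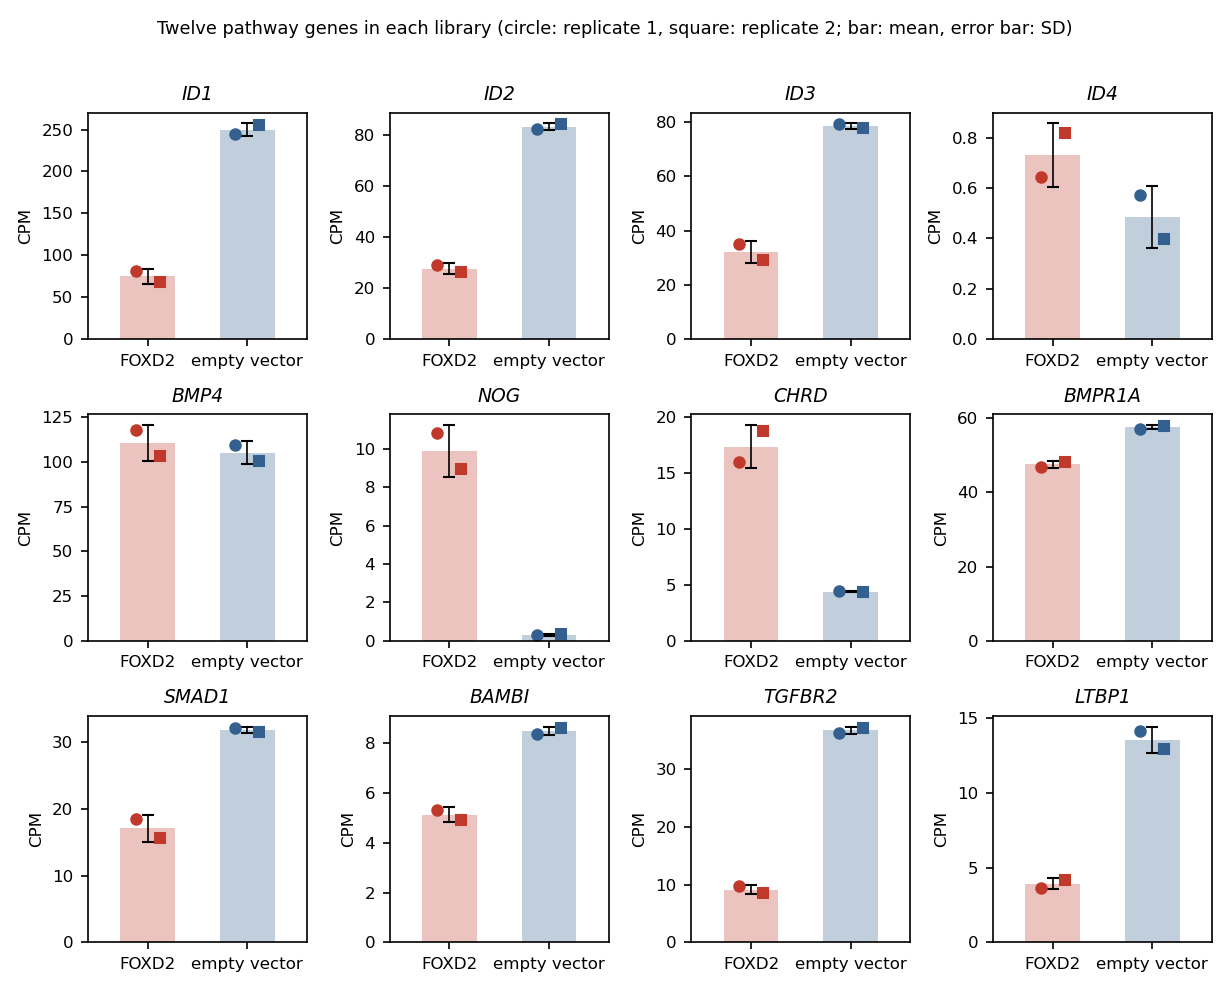
CPM of 12 pathway genes (y axis) in FOXD2 and empty vector libraries (x axis); points are libraries, bars are means and error bars are SD (n = 2). For ID1, ID2 and ID3 the points of FOXD2 cells lie below those of empty vector cells for the same gene. The NOG and CHRD points of FOXD2 cells lie above those of empty vector cells, and the BMP4 points overlap.

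Among the 5 extracellular antagonists, NOG, CHRD and FSTL3 rose, and FST and GREM1 were too low to test. Noggin (NOG), a secreted protein that binds BMP4 and related BMPs and keeps them from their receptors, had 10.8 and 8.94 CPM in FOXD2 cells, against 0.286 and 0.331 CPM in empty vector cells. These values rest on 169 and 131 counts in FOXD2 cells, against 4 and 5 counts in empty vector cells. The log2 fold change was 4.96 (SE 0.32, edgeR adjusted p = 1.5e-19), and NOG passed the filter on low counts only through its FOXD2 libraries. Chordin (CHRD), another secreted BMP antagonist, had 16 and 18.7 CPM in FOXD2 cells, against 4.43 and 4.37 CPM in empty vector cells, a fitted log2 fold change of 1.98 (SE 0.16; adjusted p = 1.5e-15 by edgeR). FSTL3, a follistatin-like protein that binds activins, had 68.3 and 56.4 CPM in FOXD2 cells, against 26.8 and 28.7 CPM in empty vector cells, a fitted log2 fold change of 1.17 (SE 0.09; adjusted p = 6.3e-15 by edgeR). The libraries of the groups did not overlap for NOG, CHRD or FSTL3, as was the case for 76.1% of all tested genes. Follistatin (FST) had 1 and 1 counts in FOXD2 cells, against 5 and 7 in empty vector cells. Gremlin (GREM1) had 0 counts in both FOXD2 libraries, against 0 and 1 in empty vector cells, and neither FST nor GREM1 was tested. NBL1, a secreted BMP antagonist outside the 51 genes and named after its value was seen, was lower (61.3 and 52.6 CPM in FOXD2 cells, against 68.9 and 69.0 CPM in empty vector cells; log2 fold change -0.28, SE 0.08; adjusted p = 0.0029 by edgeR). Per length it was above NOG and CHRD in both groups, at 50.3 TPM in FOXD2 cells and 56.0 TPM in empty vector cells. NOG lies on chromosome 17 from 56593699 to 56595590 (plus strand) and CHRD on chromosome 3 from 184380073 to 184390736 (plus strand), on GRCh38 in GENCODE release 29. CHRD shares 361 of its 6620 exonic bases with the opposite strand gene THPO.

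BMP4, BMP7 and BMP8B did not pass the test. BMP4, the main BMP of this line by level, had 118 and 103 CPM in FOXD2 cells, against 109.7 and 101 CPM in empty vector cells. The groups overlapped, and the log2 fold change was 0.07 (SE 0.07, edgeR adjusted p = 0.41). BMP7 had 14.2 ± 0.0560 CPM in FOXD2 cells and 12.7 ± 0.719 CPM in empty vector cells (SD, n = 2 each; log2 fold change 0.15, edgeR adjusted p = 0.35). BMP7 passed as higher when the authors' TPM was tested in place of counts (limma adjusted p = 0.031 with either pseudocount). BMP8B, with 18.2 ± 2.15 CPM in FOXD2 cells and 20.4 ± 1.69 CPM in empty vector cells (SD, n = 2 each), did not pass (edgeR adjusted p = 0.24), and it may share reads with its near-identical neighbour BMP8A. BMP2 had 1 and 1 counts in FOXD2 cells, against 5 and 0 in empty vector cells. By TPM, BMP4 was at 99.0 ± 7.09 in FOXD2 cells and 87.8 ± 7.84 in empty vector cells, whereas BMP7 was at 8.80 ± 0.389 in FOXD2 cells and 6.12 ± 0.255 in empty vector cells (SD, n = 2 each).

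**Figure D2:**
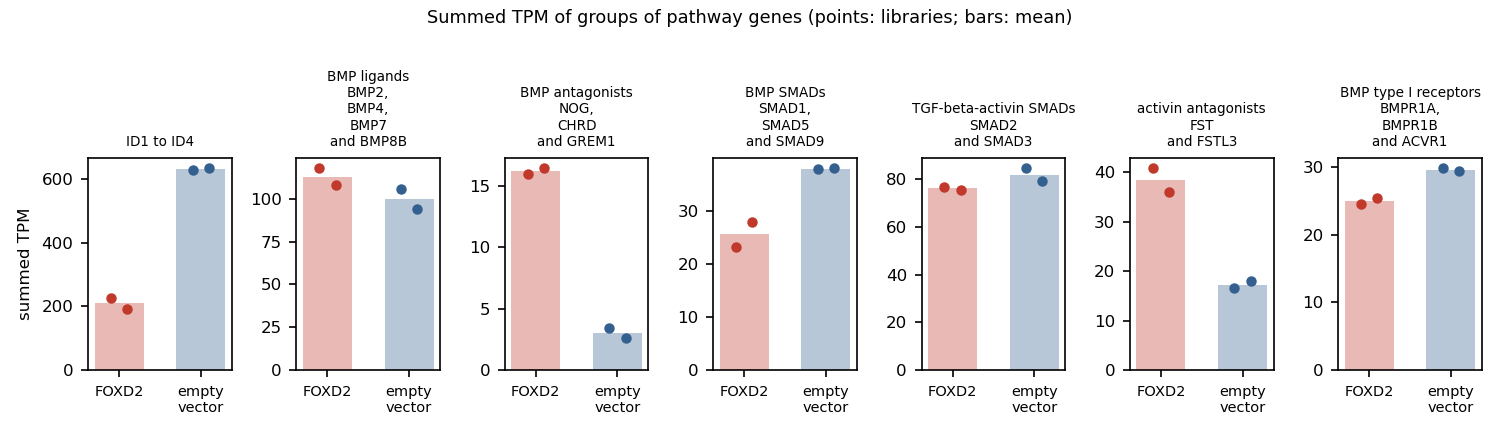
Summed TPM (y axis) of 7 groups of pathway genes in FOXD2 and empty vector libraries (x axis); points are libraries and bars are means of 2. ID genes averaged 209 TPM in FOXD2 cells and 631 TPM in empty vector cells, and NOG, CHRD and GREM1 together, without NBL1, 16.2 TPM in FOXD2 cells and 3.04 TPM in empty vector cells.

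Other ligands of the family differed among themselves. TGFB1, the most abundant TGF-beta here, had 107 and 99.0 CPM in FOXD2 cells, against 71.9 and 76.7 CPM in empty vector cells, and rose with a fitted log2 fold change of 0.47 (SE 0.07; adjusted p = 2.3e-07 by edgeR). TGFB2 was rare, with 3 and 4 counts in FOXD2 cells, against 12 and 14 in empty vector cells, and was lower (log2 fold change -1.91, SE 0.60; adjusted p = 0.0058 by edgeR). The TGFB2 call was lost without FOXD2 replicate 1 (adjusted p = 0.087), without empty vector replicate 1 (0.061) or 2 (0.093), with DESeq2 (0.17) and on TPM with pseudocount 1 (limma, 0.053). TGFB3 had 2.22 ± 0.0499 CPM in FOXD2 cells and 1.32 ± 0.460 CPM in empty vector cells (SD, n = 2 each; log2 fold change 0.76, edgeR adjusted p = 0.071). It passed only without empty vector replicate 1 (adjusted p = 0.047). Activin subunit genes were low. INHBB had 1.55 ± 0.260 CPM in FOXD2 cells and 1.05 ± 0.542 CPM in empty vector cells (SD, n = 2 each; edgeR adjusted p = 0.23), and INHBA had 0 and 0 counts in FOXD2 cells, against 0 and 2 in empty vector cells. INHBE had 0 and 3 counts in FOXD2 cells, against 2 and 8 in empty vector cells. LEFTY1 and NODAL, which act in embryonic patterning, had at most 3 counts in any library. BMP1 is listed with the ligands by name but is a secreted metalloprotease that processes procollagens and cleaves chordin. It had 86.9 and 85.4 CPM in FOXD2 cells, against 41.4 and 40.2 CPM in empty vector cells, a fitted log2 fold change of 1.08 (SE 0.08; adjusted p = 1.4e-17 by edgeR). The BMP antagonist CHRD and the chordin-cleaving BMP1 were thus both higher.

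Latent TGF-beta binding proteins tether TGF-beta to the matrix until it is released. LTBP1 had 3.66 and 4.16 CPM in FOXD2 cells, against 14.1 and 12.9 CPM in empty vector cells, and fell with a fitted log2 fold change of -1.79 (SE 0.17; adjusted p = 6.7e-13 by edgeR). LTBP2, which does not bind latent TGF-beta despite its name, had 8.02 and 8.39 CPM in FOXD2 cells, against 3.0 and 2.51 CPM in empty vector cells, and rose with a fitted log2 fold change of 1.57 (SE 0.22; adjusted p = 1.2e-08 by edgeR). LTBP3 and LTBP4 were the abundant members. LTBP3 had 131 ± 9.21 TPM in FOXD2 cells and 107 ± 4.24 TPM in empty vector cells, and LTBP4 had 100.2 ± 12.2 TPM in FOXD2 cells and 78.0 ± 1.94 TPM in empty vector cells (SD, n = 2 each). In counts both rose slightly, LTBP3 with a fitted log2 fold change of 0.32 (SE 0.06; adjusted p = 1.1e-05 by edgeR) and LTBP4 with 0.24 (SE 0.07, edgeR adjusted p = 0.0021). The LTBP4 call was lost without empty vector replicate 2 (adjusted p = 0.066). LTBP1 made up 0.462% and 0.636% of the LTBP TPM in FOXD2 cells, against 1.69% and 2.0% in empty vector cells, so the member that fell was a minor component in every library.

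Among receptors, TGFBR2, the type II receptor of TGF-beta, fell most. It had 9.69 and 8.6 CPM in FOXD2 cells, against 36.3 and 37.2 CPM in empty vector cells, a 4.01-fold lower level (log2 fold change -2.0, SE 0.12; adjusted p = 2.6e-21 by edgeR). Its rank was 76 in the order of falls over all 14470 genes. The gene spans chromosome 3 from 30606502 to 30694142 (plus strand, GRCh38, GENCODE release 29). BAMBI, a receptor-like protein without a kinase that dampens signalling, had 5.33 and 4.91 CPM in FOXD2 cells, against 8.36 and 8.6 CPM in empty vector cells, and fell (log2 fold change -0.73, SE 0.19; adjusted p = 0.0008 by edgeR). ACVR1C, the type I receptor ALK7, had 6.99 and 8.53 CPM in FOXD2 cells, against 2.79 and 2.84 CPM in empty vector cells, and rose (log2 fold change 1.46, SE 0.22; adjusted p = 1.1e-07 by edgeR). TGFBR3, the co-receptor betaglycan, had 16.6 and 18.5 CPM in FOXD2 cells, against 12.6 and 11.0 CPM in empty vector cells, and rose (log2 fold change 0.57, SE 0.13; adjusted p = 0.00027 by edgeR), a call that was lost when TPM was tested (limma adjusted p = 0.46).

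The remaining receptors moved little. The type I receptors BMPR1A (log2 fold change -0.28, edgeR adjusted p = 0.0031), ACVR1B (-0.34, 0.0012) and TGFBR1 (-0.28, 0.0064) were each lower by less than 1.5-fold, and the type II receptor ACVR2A was higher by a like amount (0.36, 0.025). BMPR1A had 47.5 ± 1.04 CPM in FOXD2 cells and 57.6 ± 0.571 CPM in empty vector cells (SD, n = 2 each), and its call held in all 14 alternatives. The TGFBR1 call was lost without FOXD2 replicate 1 (adjusted p = 0.069), without empty vector replicate 1 (0.11), with DESeq2 (0.075) and on TPM (limma, 0.61 with either pseudocount, where the log2 difference was -0.11 or -0.10). The ACVR2A call was lost without FOXD2 replicate 1 (0.15), without empty vector replicate 1 or 2 (0.11 each), with DESeq2 (0.26) and on TPM (limma, 0.10 with either pseudocount). ACVR1B was not called on TPM (limma adjusted p = 0.11). ACVR1 (0.05), BMPR2 (0.03), ACVR2B (0.21) and the rare ACVRL1 (-0.30) did not pass, where the values are log2 fold changes. ACVR2B passed with library totals alone as the scale (0.27, edgeR adjusted p = 0.028) and with crossed pairing of replicate numbers as a block. With a library left out, its log2 fold change lay between 0.08 and 0.33. BMPR1B had at most 1 count in any library. By TPM, BMPR1A was the highest receptor gene in both groups, with 12.7 ± 0.0778 in FOXD2 cells and 18.2 ± 0.0636 in empty vector cells. ACVR1 came next in FOXD2 cells with 12.3 ± 0.686, close to BMPR1A. TGFBR2 stood at 3.0 ± 0.283 in FOXD2 cells and 12 ± 0.566 in empty vector cells (SD, n = 2 each), so it ranked with ACVR1 in empty vector cells and below it in FOXD2 cells.

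**Figure D3:**
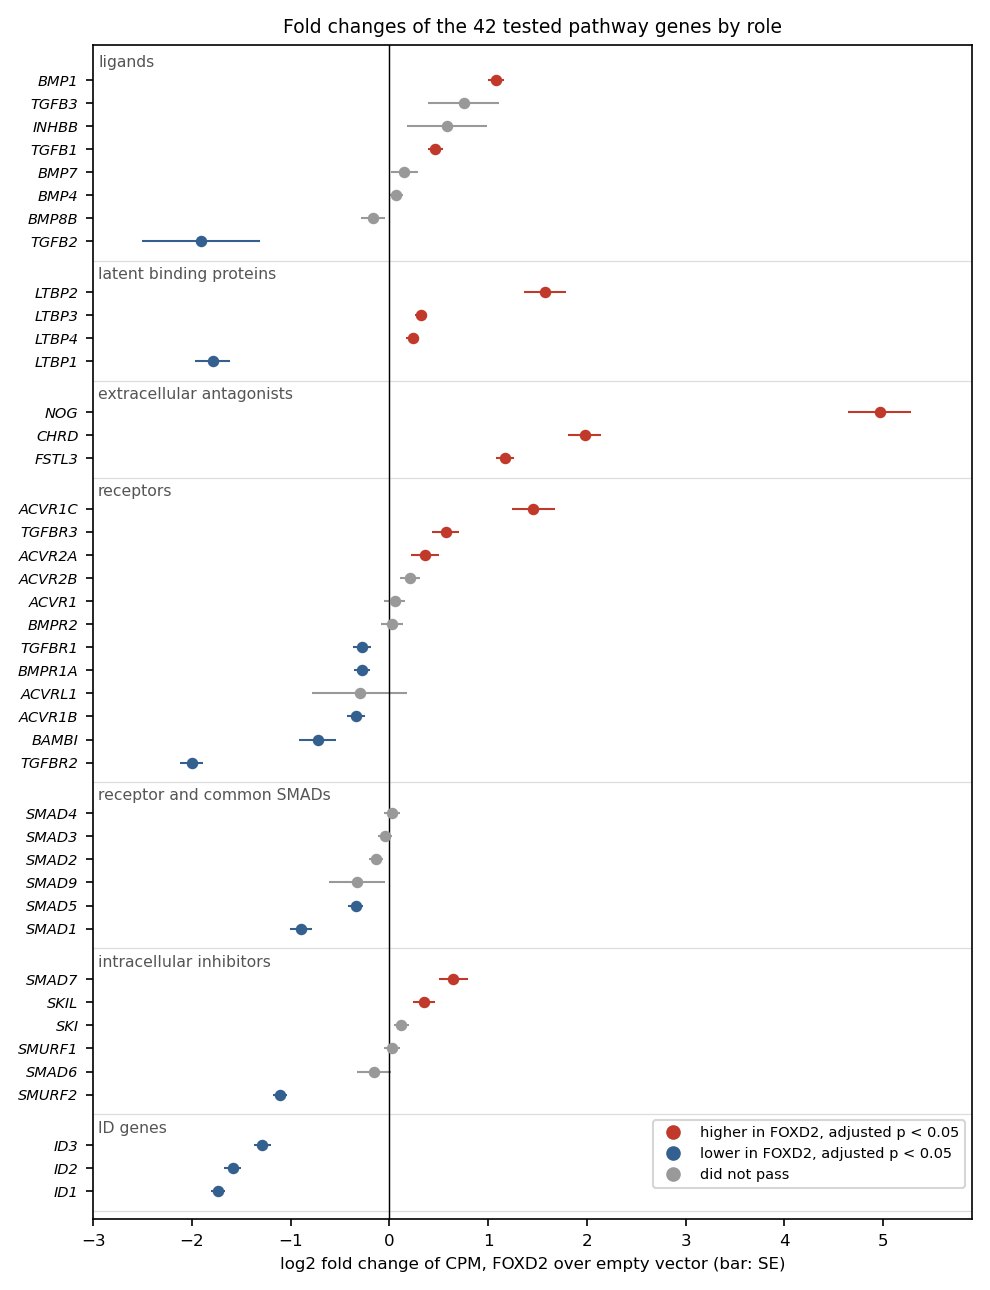
Fitted log2 fold change of FOXD2 over empty vector (x axis, bars are SE) for the 42 tested pathway genes (y axis), grouped by role and coloured by the edgeR call. NOG at 4.96 is the largest rise, and TGFBR2 at -2.0 the largest fall.

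Of the receptor SMADs, SMAD1 and SMAD5 fell, while SMAD9, SMAD2 and SMAD3 were not called. SMAD1 had 18.5 and 15.6 CPM in FOXD2 cells, against 32.1 and 31.5 CPM in empty vector cells, and fell with a fitted log2 fold change of -0.90 (SE 0.11; adjusted p = 5.2e-10 by edgeR). SMAD5 had 68.5 and 79.0 CPM in FOXD2 cells, against 95.1 and 91.7 CPM in empty vector cells, and fell with a fitted log2 fold change of -0.34 (SE 0.07; adjusted p = 0.00011 by edgeR). On TPM the SMAD5 difference did not pass (limma adjusted p = 0.053). SMAD9 was low, with 2.48 ± 0.0614 CPM in FOXD2 cells and 3.13 ± 0.0238 CPM in empty vector cells (SD, n = 2 each; edgeR adjusted p = 0.33). SMAD2 (log2 fold change -0.13, edgeR adjusted p = 0.10), SMAD3 (-0.05, 0.62) and the common partner SMAD4 (0.03, 0.79) did not pass. Together SMAD1, SMAD5 and SMAD9 summed to 25.6 ± 3.32 TPM in FOXD2 cells and 37.9 ± 0.0636 TPM in empty vector cells, while SMAD2 and SMAD3 summed to 76.1 ± 0.990 TPM in FOXD2 cells and 81.7 ± 3.86 TPM in empty vector cells (SD, n = 2 each). The difference between the SMAD types was not tested. SMAD1 and SMAD5 each have an antisense gene over part of their exons (376 of 6058 bases and 610 of 9040 bases).

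Intracellular inhibitors split. SMURF2, a ubiquitin ligase that marks SMADs and receptors for degradation, had 76.1 and 79.2 CPM in FOXD2 cells, against 170.1 and 164 CPM in empty vector cells, and fell with a fitted log2 fold change of -1.11 (SE 0.07; adjusted p = 1.1e-20 by edgeR). Its relative SMURF1 was at 53.3 ± 2.09 CPM in FOXD2 cells and 52.4 ± 2.07 CPM in empty vector cells (SD, n = 2 each; edgeR adjusted p = 0.83). SMAD7, the inhibitory SMAD induced by both branches of the pathway, had 16.3 and 13.0 CPM in FOXD2 cells, against 9.72 and 9.0 CPM in empty vector cells, and rose (log2 fold change 0.65, SE 0.15; adjusted p = 0.00018 by edgeR). SMAD6, the inhibitory SMAD with a preference for BMP receptors, was at 7.5 ± 1.08 CPM in FOXD2 cells and 8.32 ± 0.354 CPM in empty vector cells (SD, n = 2 each), overlapped between the groups and did not pass (edgeR adjusted p = 0.48). Of the SMAD co-repressors, SKIL was higher (25.3 and 28.7 CPM in FOXD2 cells, against 23.1 and 19.2 CPM in empty vector cells; log2 fold change 0.35, SE 0.11, edgeR adjusted p = 0.0062). SKI, with 79.3 ± 3.51 CPM in FOXD2 cells and 72.9 ± 4.36 CPM in empty vector cells (SD, n = 2 each), was not called (edgeR adjusted p = 0.17), but passed with library totals alone as the scale (adjusted p = 0.034). The SKIL call was lost without FOXD2 replicate 2 (adjusted p = 0.072), without empty vector replicate 2 (0.23), with DESeq2 (0.14) and on TPM (limma, 0.41 or 0.42).

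**Figure D4:**
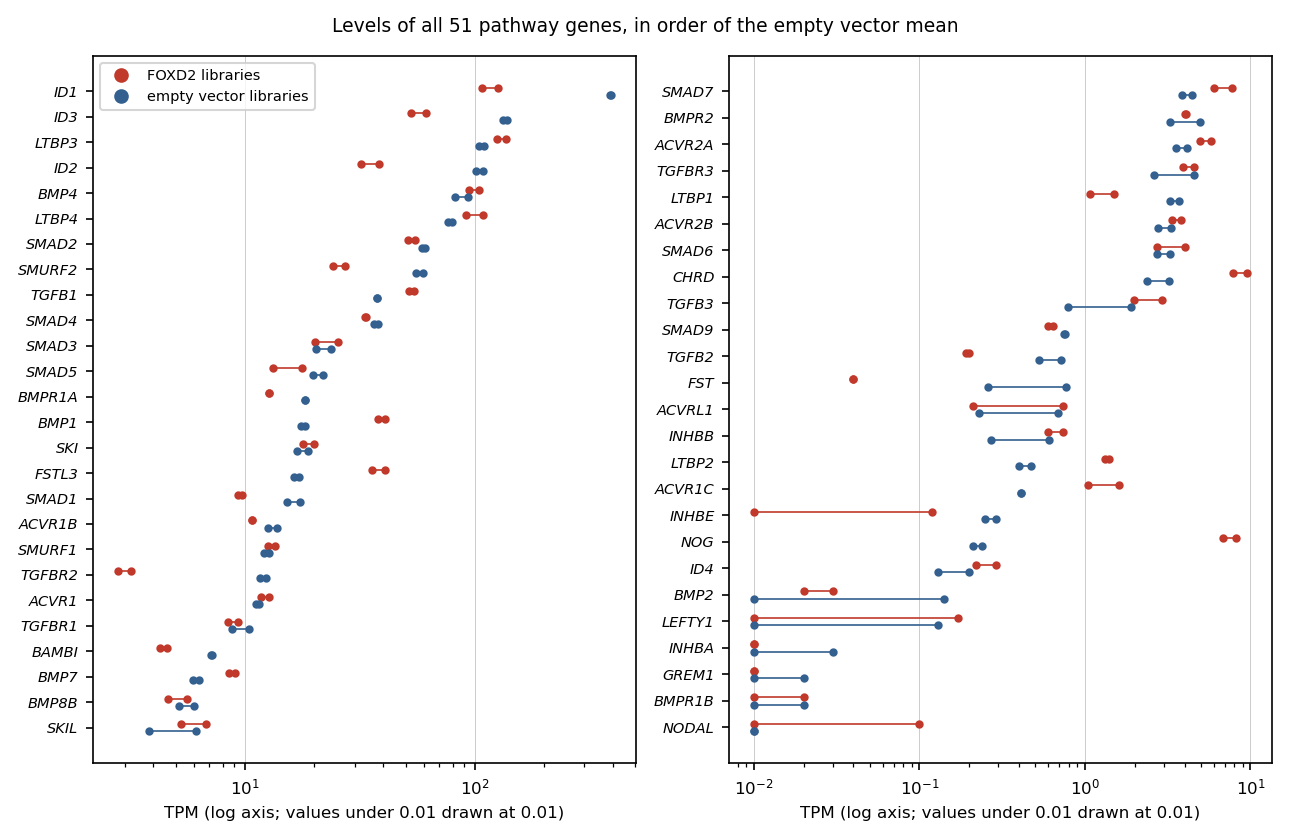
TPM (log x axis) of all 51 pathway genes in each library, ordered down the page by the empty vector mean; points are libraries, and a line joins the 2 libraries of a group, and values under 0.01 are drawn at 0.01. ID1 leads at 391 TPM in empty vector cells, and NOG stands at 7.5 TPM in FOXD2 cells, against 0.225 TPM in empty vector cells.

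Over the members, 42 of the 51 passed the filter on low counts, 38 of them in both groups, NOG and INHBB through the FOXD2 libraries alone, and TGFB2 and ACVRL1 through the empty vector libraries alone. Of the 42, 13 were higher, 13 lower and 16 not called, so 61.9% passed, beside 53.5% of all tested genes. Their median log2 fold change was 0.03, beside 0.01 over all tested genes. The members lower by at least 2-fold were TGFBR2, TGFB2, LTBP1, ID1, ID2, ID3 and SMURF2, and those higher by at least 2-fold were NOG, CHRD, LTBP2, ACVR1C, FSTL3 and BMP1. Of these, NOG and TGFB2 were tested only because of the group in which they are high. Both also count among the 61.9% that passed, so no result is drawn from that share or from the 2-fold numbers against all genes. The 9 members that were not tested were ID4, FST, GREM1, LEFTY1, INHBE, NODAL, BMP2, INHBA and BMPR1B.

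Other genes of the pathway were read from lists of known targets and partners. Of 18 listed BMP and SMAD1 targets, 14 were tested, and 3 rose (21.4%, beside 27.2% of all tested genes) and 5 fell (35.7%, beside 26.4%), with a median log2 fold change of -0.24. This list holds 9 of the members above, so its shares and median partly restate their values, and no result is drawn from them. Its largest change outside the members was in MSX1, a homeobox gene induced by BMPs in many embryonic tissues. MSX1 had 314 and 264 CPM in FOXD2 cells, against 90.4 and 92.8 CPM in empty vector cells, and rose with a fitted log2 fold change of 1.66 (SE 0.07; adjusted p = 7.1e-20 by edgeR). The 3 that rose were MSX1, NOG and SMAD7, and NOG passed the filter on low counts only through its FOXD2 libraries, where it is high. The 5 that fell were the members ID1, ID2, ID3 and BAMBI, and GATA2, a transcription factor (log2 fold change -0.58). GATA2 was named after its value was seen. The other tested genes outside the members were not called: HEY1 (log2 fold change 0.40), MSX2 (0.22), GATA3 (0.09) and ATOH8 (-1.25). They too were named after their values were seen, and ATOH8 passed the filter only through the empty vector libraries.

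Of 20 listed TGF-beta and SMAD3 targets, 17 were tested, and 12 rose (70.6%, beside 27.2% of all tested genes) and 3 fell (17.6%, beside 26.4%), with a median log2 fold change of 0.94. NEDD9 and SNAI2 among the 12 passed the filter on low counts only through the FOXD2 libraries, where they are high. Both count in the share that rose and in the median, so no result is drawn from these against all genes. CCN2, a matricellular growth factor that also answers to YAP, had 41.4 and 44.9 CPM in FOXD2 cells, against 1.36 and 1.72 CPM in empty vector cells (log2 fold change 4.80, SE 0.16; adjusted p = 3.9e-32 by edgeR). PMEPA1, a membrane protein that sequesters receptor SMADs, had 7.51 and 7.44 CPM in FOXD2 cells, against 0.857 and 0.992 CPM in empty vector cells (log2 fold change 3.0, SE 0.28; adjusted p = 1.6e-13 by edgeR). The scaffold NEDD9 (51 and 46 counts in FOXD2 cells, against 6 and 3 in empty vector cells) and the EMT factor SNAI2 (60 and 53 counts in FOXD2 cells, against 4 and 9 in empty vector cells) also rose. The 3 that fell were FN1 (log2 fold change -0.41), TAGLN (-1.63) and TSC22D1 (-0.73), named after their values were seen. The list holds LTBP2, SKIL and SMAD7 of the members above. COL1A1, a member of this list and a fibroblast marker, had 31.4 and 32.8 CPM in FOXD2 cells, against 9.43 and 10.6 CPM in empty vector cells. The 9 fibroblast markers summed to 41.5 and 40.9 CPM in FOXD2 cells, against 13.3 and 15.3 CPM in empty vector cells, and COL1A2, DCN, LUM, PDGFRA and THY1 were at 0 counts in every library. Only 2 of these 9 markers were tested, COL1A1 and ACTA2, and both rose. The part of the fibroblast markers in the values of this list was not tested.

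ID proteins act through their partners, and 10 of 17 listed E proteins and partners were tested, of which 3 rose (30%, beside 27.2% of all tested genes) and 4 fell (40%, beside 26.4%), with a median log2 fold change of 0.30. TWIST1, 1 of the 4, passed the filter only through the empty vector libraries, so no result is drawn from these shares against all genes. TCF3, which encodes E12 and E47, had 159 and 156 CPM in FOXD2 cells, against 184 and 188 CPM in empty vector cells, and fell slightly (log2 fold change -0.24, SE 0.06; adjusted p = 0.00082 by edgeR). TCF12, the E protein HEB, had 64.7 and 79.0 CPM in FOXD2 cells, against 102 and 95.5 CPM in empty vector cells, and fell too (log2 fold change -0.46, SE 0.08; adjusted p = 6.0e-06 by edgeR). TCF4, the E protein E2-2, had 1 count over all 4 libraries. The bHLH repressor HES1 rose (log2 fold change 2.68, SE 0.08; adjusted p = 1.2e-34 by edgeR), as did ETS2 (1.6) and ETS1 (0.96), ETS factors that ID proteins can bind, while the bHLH repressor BHLHE41 fell (-1.56). E protein RNA was thus lower by less than 1.5-fold, in the same direction as the larger fall of ID1, ID2 and ID3.

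**Figure D5:**
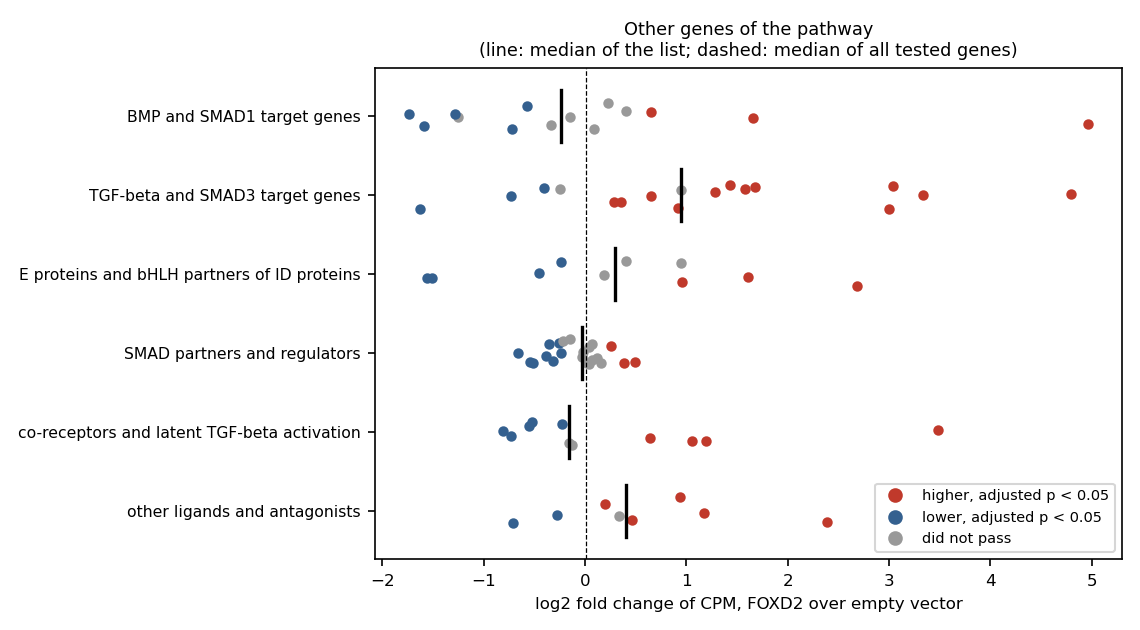
Fitted log2 fold change of FOXD2 over empty vector (x axis) for the tested genes of 6 further lists (y axis); points are genes coloured by the edgeR call, with vertical jitter, and the solid line is the median of the list. The median was 0.94 for TGF-beta and SMAD3 targets and -0.24 for BMP and SMAD1 targets, beside 0.01 for all tested genes. Both target lists hold members described above and genes tested only because of the group in which they are high. No result is drawn from these medians.

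Of 18 co-receptors and genes of latent TGF-beta activation, 11 were tested, and 4 rose (36.4%, beside 27.2% of all tested genes) and 5 fell (45.5%, beside 26.4%), with a median log2 fold change of -0.16. Thrombospondin THBS1, which can release active TGF-beta from its latent form, had 87.5 and 87.9 CPM in FOXD2 cells, against 7.93 and 7.74 CPM in empty vector cells (log2 fold change 3.48, SE 0.10; adjusted p = 5.9e-35 by edgeR). The proprotein convertase FURIN, which cleaves TGF-beta and BMP precursors, had 183 and 167 CPM in FOXD2 cells, against 81.1 and 72.4 CPM in empty vector cells (log2 fold change 1.19, SE 0.07; adjusted p = 5.2e-21 by edgeR). ITGB8, an integrin chain that activates latent TGF-beta, also rose (1.06), while ITGAV, the chain it pairs with, fell (-0.55, adjusted p = 0.00033 by edgeR). The integrin chains ITGB5 (-0.73) and ITGB1 (-0.22), the BMP co-receptor RGMA (-0.81) and its receptor NEO1 (-0.53) fell too. ITGAV, ITGB5, ITGB1 and NEO1 were named after their values were seen. Of 24 SMAD partners and regulators, 22 were tested, and 3 rose (13.6%) and 8 fell (36.4%), none by 2-fold, with a median of -0.03. In all 50% of them were called, near the 53.5% of all tested genes. Among them the ubiquitin ligase NEDD4L (-0.66), the SMAD7 partner STRAP (-0.54) and the co-repressor TGIF1 (-0.51) fell and RUNX1 (0.49) rose, all as log2 fold changes. Of 30 other ligands and antagonists, 8 were tested, and 5 rose (62.5%, beside 27.2% of all tested genes) and 2 fell (25%, beside 26.4%), with a median of 0.40. They included GDF15, a stress-induced distant family member (514 and 409.8 CPM in FOXD2 cells, against 80.7 and 95.7 CPM in empty vector cells; log2 fold change 2.39, edgeR adjusted p = 0.0032), AMH (1.18) and BMP6 (0.94), which rose, and FSTL1 (-0.71) and the NBL1 described above, which fell.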

How the data were processed

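PolyA RNA from 4 HCT116 samples was sequenced with a strand-specific kit, per the labels' protocols. STAR 2.7.2b and RSEM 1.2.31 were used on GRCh38, per the submitters' processing notes; annotation release and strand setting are not given in the sources used here. The authors' tables hold expected counts, which divide reads shared between genes, and the authors' TPM, per the file headers. Expected counts were rounded to whole numbers. FOXD2 and empty vector libraries were compared with edgeR 4.0.16 in R 4.3.3 (TMM, filterByExpr, robust quasi-likelihood fit), with library totals between 14231338 and 15535817. CPM uses TMM-scaled totals. DESeq2 1.42.0, limma 3.58.1 (voom, and log2 TPM plus 0.1 or 1), other scalings, filters, a replicate block and leaving out each library were alternatives. Self-tests on simulated counts were run.

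Symbols came from a gene name table, coordinates from GENCODE release 29 and promoters from RefSeq, which held 43 of the 51 members. Members and gene lists were chosen with earlier results of these data known. Genes named in full were, per role, up to 4 that passed with a mean of at least 1 CPM and no overlap between groups, plus the ID genes, TGFBR2, TCF3, TCF4 and TCF12; up to 4 per further list were named by the same conditions. MSX1 is named as the largest change of its list outside the members, and other members are given for completeness.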

Additional observations from a re-analysis of the deposited data

How the results depend on the processing

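Of the 26 called members, 18 kept their call in every alternative that gave a value, among them ID1, ID2, ID3, NOG, CHRD, TGFBR2, SMAD1 and SMURF2; the exceptions were TGFB2, TGFBR1, TGFBR3, ACVR2A, ACVR1B, SMAD5, SKIL and LTBP4. No called member changed direction in the alternatives run. ID1 ranged between -1.88 and -1.62 on the log2 scale, TGFBR2 between -2.10 and -1.70, and NOG between 2.79 and 5.09, lowest with a TPM pseudocount of 1. Of the 16 members not called, 5 passed in at least 1 alternative (BMP7, ACVR2B, TGFB3, SKI, SMAD2).

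With 1 library left out, and the lone sample assumed to vary like the other group, 10 to 14 members were higher and 11 to 13 lower, with a median of 0.0065 to 0.0550, and 3146 to 3579 of all genes were higher and 3046 to 3650 lower. The list of other ligands and antagonists then had 3 to 6 higher and 1 to 2 lower, and SMAD partners 1 to 4 higher and 6 to 8 lower. DESeq2 placed 2414 of all genes higher and 2801 lower, 3 other ligands and antagonists higher and 1 SMAD partner higher. On TPM with pseudocount 0.1 or 1, 2917 or 2929 of all genes were higher and 2436 or 2442 lower, the members' median was 0.0839 or 0.0792, and, with either, 3 other ligands and antagonists were higher, 0 lower, and 4 SMAD partners were lower. With library totals alone the members' median was 0.0909 and that of all genes 0.07, with 4511 of all genes higher and 3110 lower. The cause of these shifts was not tested.

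Replicate numbers are shared by the groups, but nothing in the labels pairs the samples. With the replicate number as a block, 13 members were higher and 13 lower, with a median of 0.03, and 3680 of all genes were higher and 3494 lower. Deviations of same-numbered libraries correlated at -0.10 across genes, and crossed pairing, added after seeing the data, gave 14 members higher and 14 lower. Genes near 0 counts are limited by depth.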
